A study of Mus musculus with 8 samples.

Results

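The regions described here are the 300 intergenic 10 kb stretches of the mouse autosomes that held the most ends of paired-end tags (PETs) in a Pol II ChIA-PET study of liver. They were chosen by measured values. The 19 autosomes were divided into 10 kb bins, the ends in each bin were scaled to every 1000000 ends of an experiment (ends per 1000000, EPM) in each of 3 experiments, and bins were ranked by the median of the 3 densities. A bin counted as intergenic where no protein-coding gene of the RefSeq annotation lay within 2.5 kb. Of 235186 autosomal bins with at least 1 end, 119548 were intergenic by this rule and 115638 were genic, so the 300 members are the densest of 119548. The densities themselves are therefore a description and were not tested.

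ChIA-PET immunoprecipitates crosslinked chromatin, ligates DNA ends that lie in one complex, and sequences a tag from either side of the junction. The samples were livers of wild-type C57BL/6 mice aged 3-6 months, kept in 12 hours of light and 12 hours of dark with free food and water. Livers were collected at ZT06, in the middle of the day, or at ZT18, in the middle of the night, where ZT counts hours from lights on. Chromatin of 3-7 livers was combined for each precipitation with the Pol II antibody 8WG16, so a library has no value for a single animal. There were 8 libraries by the labels, with 4 from either time point. Experiment JM08 had 2 libraries at each time point and was crosslinked with EGS and formaldehyde (dual). Experiment JM12 had 1 library at each time point and was also dual-crosslinked. Experiment JM11 had 1 library at each time point and was crosslinked with formaldehyde alone (single). The deposited table names the experiment of each PET but neither its library nor its time point, so day and night were not compared here. Values are given for each experiment, and there is no spread between replicate libraries to set them against. For a single member, the share of ends in its densest 100 bp is the mean over the experiments, and its shares of PETs within 8 kb and of distinct positions are pooled over them unless each experiment is given. Only JM11 had single crosslinking, so the effects of crosslinking and of the experiment cannot be told apart.

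Pol II transcribes protein-coding genes, most long noncoding RNAs (lncRNAs), primary microRNA transcripts and most spliceosomal RNAs, whereas ribosomal RNA genes are transcribed by Pol I and transfer RNA genes by Pol III. Pol II is also found at active enhancers away from genes. In liver, known noncoding transcripts of Pol II include the nuclear RNAs Malat1 and Neat1 and the precursor of miR-122, the most abundant microRNA of hepatocytes. Short reads from sequences that occur in many copies can be placed together at one annotated copy, so a dense bin need not be a place of transcription.

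Annotated start sites of noncoding RNAs were found in many members, and 113 such starts of 92 genes matched the RefSeq promoter table (assembly GRCm38.p6). The promoters of the 5 genes with the most ends within 500 bp of the start are shown, and that of Dleu2, the next by ends, because it holds an E-box. Each sequence runs from 250 bases before the annotated start to 50 bases after it, on the strand of the gene. Capitals mark CACGTG (the E-box), TATAAA or CCAAT on either strand, so CCAAT on the opposite strand appears as ATTGG. Malat1 lies at chr19:5802623-5802922 on the minus strand, D230017M19Rik at chr1:72243743-72244042 on the plus strand, Dancr at chr5:74092810-74093109 on the plus strand, Chaserr at chr7:73558346-73558645 on the minus strand, Snhg5 at chr9:88522848-88523147 on the minus strand and Dleu2 at chr14:61682324-61682623 on the minus strand.
Malat1: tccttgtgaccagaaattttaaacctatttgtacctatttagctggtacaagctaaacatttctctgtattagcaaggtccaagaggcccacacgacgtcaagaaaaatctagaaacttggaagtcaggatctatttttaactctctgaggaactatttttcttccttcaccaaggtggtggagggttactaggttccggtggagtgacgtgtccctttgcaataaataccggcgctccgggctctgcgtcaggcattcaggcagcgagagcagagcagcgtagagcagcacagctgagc
D230017M19Rik: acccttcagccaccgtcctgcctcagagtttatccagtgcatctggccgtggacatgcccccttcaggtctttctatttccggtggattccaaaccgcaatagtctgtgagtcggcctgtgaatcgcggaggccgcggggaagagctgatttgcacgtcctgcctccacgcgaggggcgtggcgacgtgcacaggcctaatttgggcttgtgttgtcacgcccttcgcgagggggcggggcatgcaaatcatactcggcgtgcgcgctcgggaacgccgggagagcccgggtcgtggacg
Dancr: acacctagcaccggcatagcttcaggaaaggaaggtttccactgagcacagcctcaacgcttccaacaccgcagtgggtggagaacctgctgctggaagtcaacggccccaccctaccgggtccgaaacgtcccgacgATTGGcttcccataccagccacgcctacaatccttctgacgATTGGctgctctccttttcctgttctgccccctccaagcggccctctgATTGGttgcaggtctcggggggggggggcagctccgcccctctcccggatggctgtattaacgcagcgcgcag
Chaserr: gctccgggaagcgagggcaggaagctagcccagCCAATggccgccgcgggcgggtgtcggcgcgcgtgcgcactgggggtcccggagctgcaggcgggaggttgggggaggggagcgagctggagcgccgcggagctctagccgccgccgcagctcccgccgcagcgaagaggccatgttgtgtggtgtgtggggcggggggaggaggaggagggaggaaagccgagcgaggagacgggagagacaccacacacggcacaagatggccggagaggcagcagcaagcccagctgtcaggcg
Snhg5: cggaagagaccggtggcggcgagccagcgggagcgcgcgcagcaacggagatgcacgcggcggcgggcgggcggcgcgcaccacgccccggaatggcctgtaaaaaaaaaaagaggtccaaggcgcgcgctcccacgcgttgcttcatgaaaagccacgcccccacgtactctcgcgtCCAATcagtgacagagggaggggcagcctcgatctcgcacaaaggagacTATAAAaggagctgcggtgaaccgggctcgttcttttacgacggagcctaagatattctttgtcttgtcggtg
Dleu2: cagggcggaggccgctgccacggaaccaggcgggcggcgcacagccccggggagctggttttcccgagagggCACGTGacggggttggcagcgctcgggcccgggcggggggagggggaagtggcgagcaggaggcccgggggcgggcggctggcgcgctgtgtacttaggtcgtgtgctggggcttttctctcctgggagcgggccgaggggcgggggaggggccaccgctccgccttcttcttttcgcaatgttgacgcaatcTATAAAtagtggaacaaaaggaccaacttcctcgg

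Malat1, whose RNA is kept in nuclear speckles, had 41 ends within 500 bp of its start in JM08, 24 in JM11 and 19 in JM12, out of 79, 59 and 34 ends in the whole bin. The densest 100 bp of that bin lay 23 to 122 bp before the start, inside the printed promoter. Dancr, a lncRNA that also hosts a small nucleolar RNA, had 25, 17 and 21 ends near its start in JM08, JM11 and JM12, out of 40, 30 and 33 in the bin. Its densest 100 bp lay 28 to 127 bp before the start, so it too fell inside the printed promoter. Chaserr, a lncRNA upstream of the chromatin remodeler gene Chd2, had 23, 17 and 21 of 49, 33 and 32 ends, and its densest 100 bp straddled the start. Snhg5, a host transcript of small nucleolar RNAs, had 22, 13 and 14 of 31, 21 and 23 ends, and its densest 100 bp lay 61 to 160 bp before the start. Dleu2, the host transcript of a pair of microRNAs, had 20, 9 and 12 of 32, 26 and 31 ends. The E-box, the hexamer bound by clock factors such as BMAL1, was the reason for printing Dleu2 and is no result. D230017M19Rik, an uncharacterised lncRNA, had 26, 22 and 15 of 43, 39 and 24 ends, and its densest 100 bp began 409 bp after the start, downstream of the printed sequence.

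Summed over all 113 starts, density was higher near starts than over the whole bins. The bins were chosen for their ends, and a peak at a start can itself bring a bin into the set. The contrasts with whole bins and with starts in other bins are therefore no test. Single starts ranged from 84 ends over the experiments for Malat1 to 1 for Gm40034. The density within 500 bp of a start was 5.86 ends per kb in JM08, 4.07 in JM11 and 4.94 in JM12, against 2.41, 1.98 and 2.24 ends per kb over the whole of the same bins. At 5908 starts in the other intergenic bins the density was 0.423, 1.34 and 0.868 ends per kb, against 0.342, 1.23 and 0.742 over those bins. Starts of one gene often lie close together and share ends, so these are descriptions of the ends and not independent counts. The motifs had similar shares at member starts and over all promoters. CACGTG was present in 10 of 113 member promoters (8.85%) and in 7.14% of all 31396 promoters of the table. TATAAA was present in 13.3% against 13.6%, and CCAAT in 36.3% against 37.3%. A match is a description of the letters and not evidence of binding, and the absence of a match says only that the letters were not in the window.

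A microRNA gene was overlapped by 7 members, and the mature sequences of 2 of these bins are shown because microRNAs that share a seed lay side by side there. The bin chr14:115040000-115049999 covers the Mir17hg transcript with 6 microRNA genes, all on the plus strand. It had 31 ends in JM08, 30 in JM11 and 22 in JM12, with broad signal. The bin chr15:85700000-85709999 covers Mirlet7c-2 and Mirlet7b, also on the plus strand, with 11, 5 and 29 ends in JM08, JM11 and JM12. JM12 was the highest also in EPM, and the 5 ends in JM11 were below the 11 of the median intergenic bin there. Capitals mark the seed, bases 2 to 8 from the 5′ end.
mmu-miR-17-5p: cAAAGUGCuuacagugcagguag
mmu-miR-20a-5p: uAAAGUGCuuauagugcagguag
mmu-miR-18a-5p: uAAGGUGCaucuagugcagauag
mmu-miR-19a-3p: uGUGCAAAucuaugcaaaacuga
mmu-miR-19b-3p: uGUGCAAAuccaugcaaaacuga
mmu-miR-92a-3p: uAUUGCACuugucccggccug
mmu-let-7c-5p: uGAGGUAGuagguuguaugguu
mmu-let-7b-5p: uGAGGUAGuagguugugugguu

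The sequences of miR-17-5p and miR-20a-5p share the seed AAAGUGC, those of miR-19a-3p and miR-19b-3p share GUGCAAA, and those of let-7c-5p and let-7b-5p share GAGGUAG. The seeds of miR-18a-5p and miR-92a-3p were shared with no other microRNA printed here. The let-7 bin also overlaps Lncppara and lies 24.9 kb from Ppara, the gene of a nuclear receptor that controls fatty acid oxidation in liver. The other microRNA bins held Mir122, Mir101c, Mir193a, Mir1839 and Mir760. The Mir193a bin, chr11:79710000-79719999, had 27, 26 and 27 ends in JM08, JM11 and JM12. The Mir101c bin lies in the dense run at the start of chromosome 9 and is described with that run.

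The members spanned a wide range of density. The median of the 3 experiments was 1413 EPM in the densest member and 8.93 in the last, against a median of 3.48 over all intergenic bins. The 300 members held 14795 of 948956 ends in JM08 (1.56%, 95% exact binomial interval 1.53 to 1.58%), 18733 of 2877732 in JM11 (0.651%, 0.642 to 0.660%) and 15056 of 1680420 in JM12 (0.896%, 0.882 to 0.910%). All intervals here cover counting error only. Much of this signal lay in few bins, since the 10 densest members held 51.4%, 64.0% and 57.5% of the member ends in JM08, JM11 and JM12. JM08 gave the highest density in 235 members, JM11 the lowest in 245, and JM12 the median in 204, so the ranking followed JM12 most often.

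The edge of the set was not sharp. Members at the last density numbered 29, and 25 bins outside had the same density, so ties were broken by the sum of the 3 densities and then by position. The last 3 members were chr9:121920000-121929999 near Cyp8b1 (13, 9 and 15 ends in JM08, JM11 and JM12), chr12:109990000-109999999 (10, 18 and 15) and chr15:31670000-31679999 (10, 18 and 15). The first 3 bins outside were chr13:40510000-40519999 (9, 21 and 15), chr12:97300000-97309999 (11, 14 and 15) and chr5:73720000-73729999 (10, 17 and 15). These counts differed by a few ends between inside and outside.

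**Figure D1:**
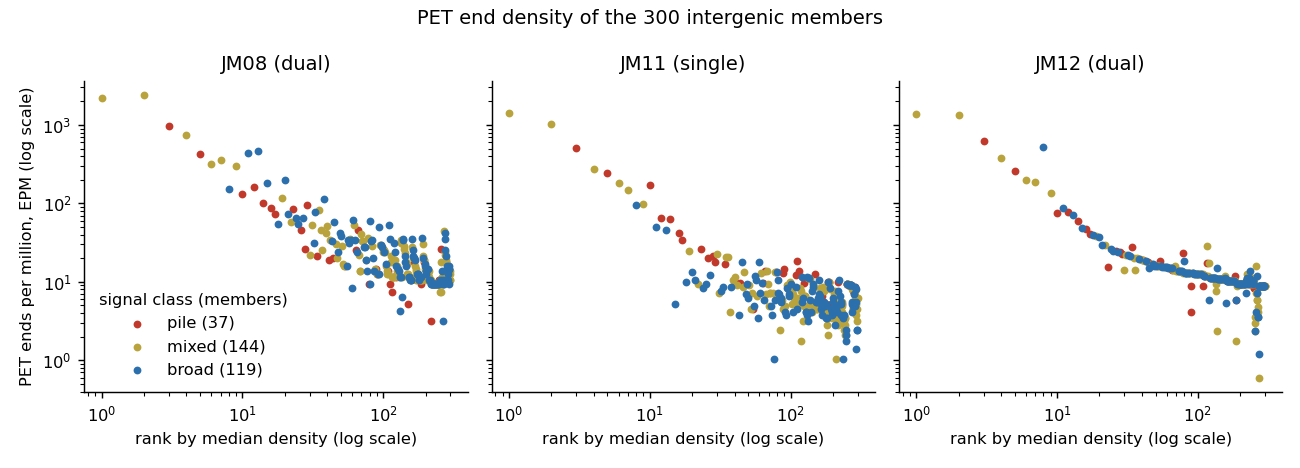
Density of PET ends in each of the 300 members (log scale, EPM) against its rank by the median of the experiments (log scale), in 1 panel per experiment, coloured by signal class. The points fall from 1413 EPM at the median of the first member to 8.93 at the last, and JM08 lies highest in 235 members.

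Members were then divided by how their ends were spread. The share of a bin's ends in its densest 100 bp, averaged over the experiments, was at least 30% in 37 members (a single pile), under 10% in 119 (broad signal) and between these in 144 (mixed). In the 300 densest genic bins the same division gave 6 piles, 161 broad and 133 mixed bins. The median share in the densest 100 bp was 56.9% in the pile class, 12.8% in the mixed class and 7.59% in the broad class. Most mixed members were sparse: 138 of the 144 had fewer than 500 ends, and their densest 100 bp held a median of 6 ends, so their class rests on few ends. The other 6 had 794 to 8528 ends, in several piles each. This division of the mixed class at 500 ends was made after the values were seen.

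Ends in the piles repeated the same positions. The pile class is defined by ends within 100 bp, so repeats are partly built in where a bin has many ends. The contrast with the broad class is a description. Distinct positions made up a median of 60%, 62.1% and 68.3% of the ends of a pile member in JM08, JM11 and JM12, against 92.9%, 100% and 100% in the broad class. In the 6 large mixed members the medians were 31.4%, 28.2% and 36.5%. PETs whose both ends lay within 2 bp of those of another PET were 1.37% of the PETs touching members in JM08, 0.00550% in JM11 and 0.0492% in JM12, so the repeated positions were mostly ends of PETs with different partners.

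Of the 10 densest members, 3 were in the pile class by their mean share, 6 were mixed and 1 was a broad bin over ribosomal sequence. The first, chr2:98660000-98669999, lies 1028328 bp from Lrrc4c and had 2112 ends in JM08, 4067 in JM11 and 2349 in JM12. Of its 100 aligned stretches of 100 bp, 33 held an end, and 4 held at least 50% of the ends. The second, chr14:19410000-19419999 near Gm2244, had 2273, 2970 and 2277 ends, with 41 of the 100 stretches in use. The third, chr9:35300000-35309999 over the lncRNA Gm33838, had 912, 1457 and 1058 ends. In this bin 71.1% of the ends lay in the 100 bp at chr9:35305382-35305481, so it is the densest single pile. The fifth, chr9:3000000-3009999, was in the pile class only by the mean over the experiments, 30.6%. Its densest 100 bp held 21.95% of its ends in JM08, 49.86% in JM11 and 19.86% in JM12. Of its 100 stretches, 29 held an end and 3 held at least 50% of the ends, so it was not a single pile.

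A run of 4 neighbouring members at the start of chromosome 9, from 3000000 to 3039999, had 1703 ends in JM08, 2292 in JM11 and 1640 in JM12. One of them overlaps Mir101c, but its densest 100 bp held 16.3% of its 302, 516 and 335 ends. The seventh member, chr11:3100000-3109999, had 339, 430 and 314 ends. It also lies close to the first position with an end on its chromosome. The tenth, chr9:24540000-24549999 near Dpy19l2, had 125, 492 and 128 ends, of which 98.7% lay in 1 pile of 100 bp. It had only 32, 30 and 25 distinct positions, and JM11 was the highest experiment there. The next piles by density were a pair of neighbouring bins on chromosome 4, chr4:3090000-3099999 (152, 186 and 130 ends) and chr4:3080000-3089999 (95, 183 and 99 ends). Repeat annotation was not used here, and the part of multi-copy sequence in these bins was not tested.

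The eighth member, chr17:39840000-39849999, was of another kind. It overlaps Rn18s-rs5, a sequence related to 18S ribosomal RNA, and the lncRNA AY036118. It had 145 ends in JM08, 278 in JM11 and 885 in JM12, or 153, 96.6 and 527 EPM. JM12 was far above both others, and the order of JM08 and JM12 was the reverse of that in most members. Its signal was broad, with 4.07% of ends in the densest 100 bp and 131, 265 and 764 distinct positions, and 11.4% of its PETs joined ends within 8 kb.

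The distance between the ends of a PET was not used to choose the members. PETs with ends at most 8 kb apart made up 28.1% of the PETs touching a broad member in JM08 (26.5 to 29.7%), 9.75% in JM11 (8.62 to 10.97%) and 13.9% in JM12 (12.7 to 15.1%). For the pile class the shares were 2.72% (2.11 to 3.46%), 0.260% (0.130 to 0.464%) and 1.40% (0.984 to 1.92%). Without the 10 densest members, the pile shares were 3.10%, 0.630% and 2.32% in JM08, JM11 and JM12. The pile class was lower than the broad class in 3 of 3 experiments, with intervals that did not overlap, and an exact two-sided sign-flip test over 3 experiments cannot give a p below 0.25. Other intergenic bins lay between, with 10.8%, 3.29% and 8.47%. The 300 densest genic bins had 30.8%, 15.1% and 16.1%, above the broad members in each experiment. A PET within 8 kb can put both of its ends in a bin, so the ranking by ends favours such PETs to a degree that was not tested.

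The mixed class held both patterns. Its 6 large members had shares of 1.96% in JM08, 0.210% in JM11 and 0.657% in JM12, within or below the intervals of the piles. The 138 small mixed members had 26.4% (24.5 to 28.4%), 10.6% (9.37 to 11.9%) and 11.5% (10.2 to 12.8%). These intervals overlapped those of the broad members in each experiment. By single members, the median share over the pooled experiments was 1.499% in the pile class, 13.8% in the mixed class and 15.6% in the broad class. Over 10% of PETs lay within 8 kb in 1 of 37 pile members, 102 of 144 mixed and 87 of 119 broad members, against 283 of 300 dense genic bins. Over all 300 members the shares were 11.7%, 2.92% and 5.51%, and without the 10 densest members they were 23.6%, 7.90% and 11.1%, so the summed value is set largely by those 10 bins.

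**Figure D2:**
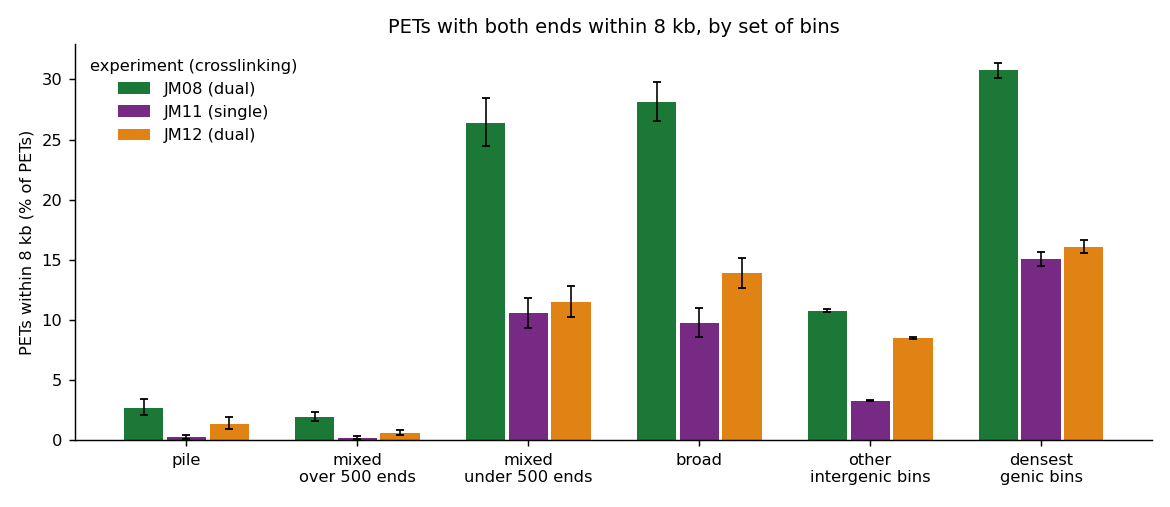
Share of PETs with both ends within 8 kb (percent of PETs touching the bins) by set of bins, with bars for JM08, JM11 and JM12 and error bars for the 95% exact binomial interval. The pile members and the large mixed members lie between 0.210% and 2.72%, and the broad members between 9.75% and 28.1%.

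The pile class itself was not uniform. In 8 of its 37 members no PET lay within 8 kb, and in 7 the share was over 5%. The highest share, 14.0%, was in chr1:72240000-72249999, the bin of D230017M19Rik whose promoter is printed above. That bin had 43, 39 and 24 ends in JM08, JM11 and JM12, and 86.8% of them were at distinct positions. The bin 20 kb away, chr1:72220000-72229999, overlaps the lncRNA Gm51630 and the small nuclear RNA gene Gm25360 and had 19, 28 and 30 ends, with 4.05% of PETs within 8 kb. At the other end, chr17:87960000-87969999 near Msh6 had 20, 49 and 47 ends with 90.2% in 100 bp, only 14.7% distinct positions and 0 of 116 PETs within 8 kb. The bin chr12:3110000-3119999 had 81, 76 and 26 ends, 97.0% of them in 1 pile and 0.550% of its PETs within 8 kb.

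**Figure D3:**
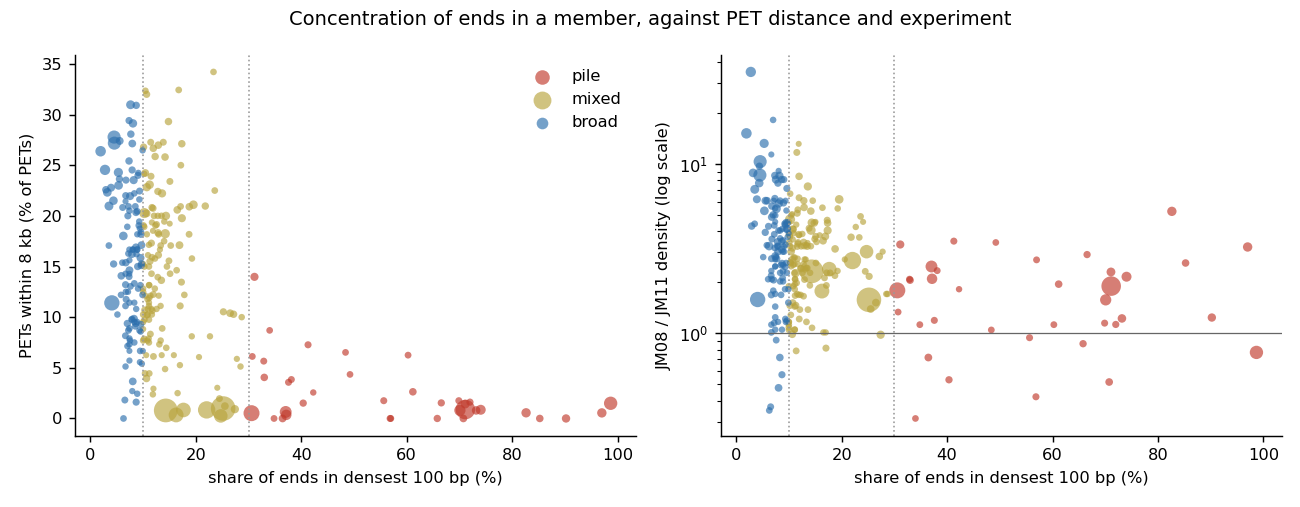
Each point is a member, with its area growing with its number of ends and its colour giving the signal class. The x axes give the percent of ends in the densest 100 bp, with dotted lines at 10% and 30%. The y axes give the percent of PETs within 8 kb (left) and the ratio of JM08 to JM11 density on a log scale (right). The largest points lie near 0 on the left, and 29 of 37 pile members lie above 1 on the right.

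The balance between the experiments also went with the class. All 3 densities entered the ranking, so these ratios are descriptions. The median ratio of JM08 to JM11 density was 1.79 in pile members, 2.72 in mixed and 3.34 in broad members, and 4.91 in the densest genic bins. The median ratio of JM12 to JM11 was 1.14, 1.93 and 1.94 in the 3 classes and 2.02 in the genic bins. JM08 exceeded JM11 in 29 of 37 pile members and in 113 of 119 broad members. Among these chosen bins, the median ratios of both dual-crosslinked experiments to JM11 were thus higher in broad members than in piles. Crosslinking, depth, the choice of bins by these same densities and other features of the experiments cannot be told apart here.

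Density was next examined in an experiment that had no part in the choice. Bins were chosen again on the mean of 2 experiments and then ranked in the third. Of 300 bins chosen without JM08, 139 (46.3%) lay at or above the 99th percentile of all intergenic bins in JM08, a level that 1.36% of the 119548 intergenic bins reached. Of 300 chosen without JM11, 79 (26.3%) reached that level in JM11, against 1% of all. Of 300 chosen without JM12, 151 (50.3%) reached it in JM12, against 1.31% of all. The first 100 bins gave 79, 60 and 87 of 100, and the last 100 gave 20, 8 and 24. The dense end of the list therefore recurred in the experiment left out far more often than the lower end, where a bin had few ends (the level was 10 ends in JM08, 24 in JM11 and 15 in JM12). By class, 59.5% of the piles reached it in JM08, 46.3% in JM11 and 58.7% in JM12, and 28.7%, 26.0% and 51.1% of the broad bins did. The mixed bins gave 61.5%, 22.0% and 47.5%. In each experiment the share of piles that recurred was thus above that of broad bins, a difference that was not tested. Mixed bins were above the piles in JM08 and below the broad bins in JM11 and JM12. Class was not separated from density in this comparison.

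**Figure D4:**
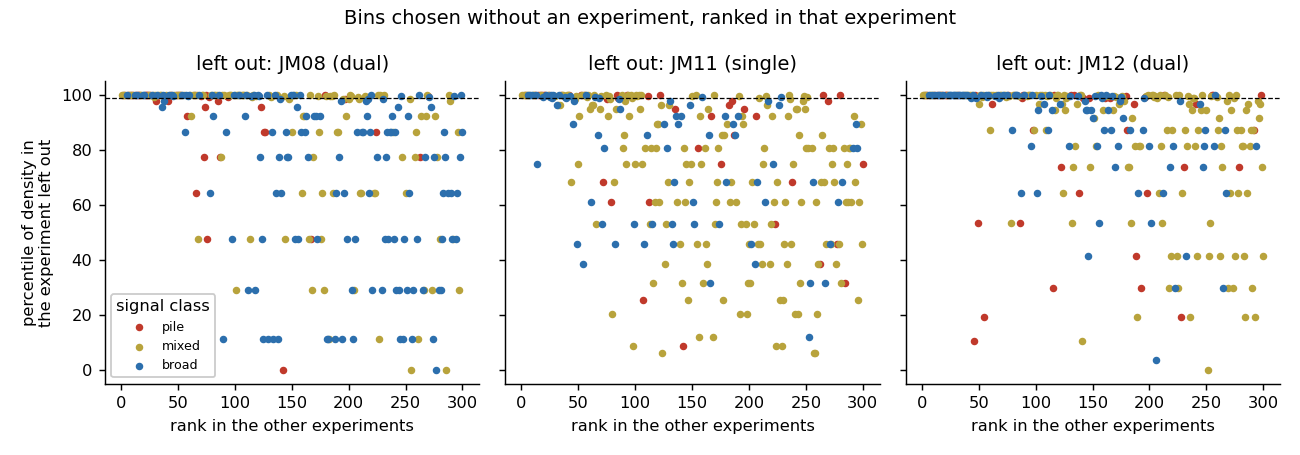
Percentile of each of 300 bins in the experiment left out of its choice (y) against its rank in the other experiments (x), coloured by signal class. The dashed line marks the 99th percentile, which 139, 79 and 151 bins reached in JM08, JM11 and JM12.

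Noncoding genes overlapped a larger share of members than of all intergenic bins. A noncoding RefSeq gene overlapped 165 of 300 members (55%) and 23.4% of all intergenic bins. For lncRNAs the counts were 143 members (47.7%) and 16.9% of bins. A noncoding gene of any type overlapped 27.0% of pile members, 56.3% of mixed and 62.2% of broad members, so the pile class was near the share of all intergenic bins. MicroRNA genes lay in 7 members (2.33%, against 0.156% of bins) and small nuclear RNA genes in 5 (1.67% against 0.389%). Small nucleolar RNA genes lay in 4 (1.33% against 0.443%) and transfer RNA genes in 2 (0.667% against 0.0929%). Transcribed pseudogenes were in 5 members (1.67% against 0.406% of bins) and other pseudogenes in 15 (5%, against 5.34%).

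Genes of small RNAs were in a few members, most of them mixed. Small nuclear RNA genes lay in the pile bins of Gm25360 and D230017M19Rik, in the Rnu2-10 bin, and in a pair of neighbouring mixed bins on chromosome 9. Of these, chr9:65190000-65199999 over Gm25313 had 19, 38 and 28 ends in JM08, JM11 and JM12, with 26.5% in the densest 100 bp. The other, chr9:65200000-65209999 over Rnu5g, a U5 spliceosomal RNA gene, had 19, 16 and 17 ends, with 14.9% in the densest 100 bp. Small nucleolar RNA genes, which lie in introns of host transcripts, were in the Dancr bin and in those of the host genes Snhg5 (31, 21 and 23 ends) and Snhg17 (10, 18 and 19 ends), and 1 more, Gm23234, was in a bin with 9, 6 and 18 ends. Transfer RNA genes were in chr14:76150000-76159999 over n-TEttc6 (10, 11 and 16 ends) and in the Mir760 bin, chr3:122290000-122299999, over n-TRtct2 (13, 11 and 15 ends). The Cyp2d36-ps, Cyp2d37-ps and Cyp2d38-ps pseudogenes, in a cluster of drug-metabolising cytochrome P450 genes, gave 3 neighbouring members with 64, 26 and 56 ends in all. The counts of these bins are not scaled for depth, so they do not rank the experiments. Depth was 948956 ends in JM08, 2877732 in JM11 and 1680420 in JM12, and the median intergenic bin had 3, 11 and 5 ends.

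Members also lay closer to protein-coding genes. The median distance to the nearest was 34.5 kb, against 115 kb for all intergenic bins, and 35.3% lay within 20 kb against 17.9%. Pile members lay at a median of 82.1 kb and broad members at 36.7 kb. Members were in every autosome, from 0.125% of the intergenic bins of chromosome 10 to 0.460% of those of chromosome 19. They formed 271 runs of touching bins, of which 20 were longer than 1 bin and held 49 members.

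The longest run covered 5 bins on chromosome 19 from 5790000 to 5839999, over Malat1 and Neat1, and had 803 ends in JM08, 240 in JM11 and 296 in JM12. Bins over Neat1, the scaffold RNA of paraspeckles, had 446, 131 and 119 ends in chr19:5830000-5839999 and 173, 15 and 81 ends in chr19:5820000-5829999. The left end of the gene is at 5824708, so part of the second bin and of its ends lies outside Neat1. Both bins were broad, with 4.55% and 2.78% of ends in the densest 100 bp. In the second, JM11 held 5.21 EPM against 182 in JM08 and 48.2 in JM12. Over the first 11 kb of the gene, from its left end, there were 226, 44 and 108 ends, and from 11 to 21 kb there were 773, 349 and 233, so ends were denser toward the right end in each experiment. The bin that holds the right end is no member, since a coding gene lies within 2.5 kb of it.

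The bin chr18:65240000-65249999, over Mir122 and Mir122b, had 411 ends in JM08, 145 in JM11 and 148 in JM12. These were 433, 50.4 and 88.1 EPM, so JM08 was highest and the dual-crosslinked experiments were both above JM11. Its signal was broad, with 4.50% of ends in the densest 100 bp and 27.8% of PETs within 8 kb. The next bin, chr18:65250000-65259999, had 110, 71 and 65 ends. Between 5 kb to the left and 4 kb to the right of the left end of Mir122 there were 509, 199 and 201 ends, and few lay beyond either side in the plot of ends around the genes.

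A minority of listed liver genes had a member as neighbour. Of 69 liver genes listed, 68 were found in the annotation, and 10 of them were the nearest gene of a member, among them Apoa4, Cebpa, Cebpb, Cyp8b1, Errfi1, Foxa2, Hpd, Onecut1 and Ppara. These accounted for 17 of the 300 members (5.67%), against 0.361% of all intergenic bins with a listed liver gene nearest. The list was drawn up with earlier results of these data known, so these shares are descriptions and no evidence of enrichment. The nearest gene was not always close, with 109568 bp between Cebpb and its member and 63797 bp between Errfi1 and its member. Foxa2, a pioneer factor of liver development, had the most, with 6 members at 2878 to 102878 bp. The densest of them, chr2:148030000-148039999, had 52, 27 and 42 ends in JM08, JM11 and JM12 and overlaps the lncRNA 9030622O22Rik, which runs through 5 of the 6. Ppara was the nearest gene of 3, the densest being chr15:85670000-85679999 with 61, 24 and 44 ends. Hpd, an enzyme of tyrosine breakdown, had 1, with 12, 15 and 17 ends. Apoa4, an apolipoprotein gene, had a bin with 27, 16 and 18 ends. Errfi1, a feedback inhibitor of EGF receptor signalling, had a broad bin with 30, 33 and 10 ends, and Onecut1, a hepatocyte transcription factor gene, a mixed bin with 12, 19 and 15. Cebpa and Cebpb, which encode liver transcription factors, had 16, 12 and 21 and 11, 9 and 16 ends. The median intergenic bin had 3 ends in JM08, 11 in JM11 and 5 in JM12. Several of these bins were thus near or below that median in JM11, as with 12 ends for Cebpa and 9 for Cebpb. Membership needs a high density in 2 of the experiments and not in each.

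Among 21 clock genes, all found, only Tef, a transcription factor of the clock output, was nearest to a member, chr15:81830000-81839999, with 34, 38 and 22 ends. That is 0.333% of members, against 0.103% of intergenic bins. Of 32 noncoding genes listed, 28 were found and 7 overlapped a member: Dleu2, Malat1, Mir122, Mir17hg, Neat1, Rn18s-rs5 and Rnu2-10. These lay in 9 members (3%), against 0.0176% of intergenic bins. The clock and noncoding lists were also drawn up with earlier results of these data known, so their shares are descriptions only. Rnu2-10, a gene of the U2 spliceosomal RNA, lies in chr11:101650000-101659999, with 30, 32 and 13 ends and 27.2% of them in 100 bp. The Serpina4-ps1 pseudogene, in the alpha-1-antitrypsin family cluster, gave 2 neighbouring broad bins with 190, 38 and 62 ends and 109, 25 and 33 ends. The lncRNA Gm35223 lies in 3 neighbouring broad bins near Insig1, a regulator of sterol synthesis, which together had 142, 61 and 122 ends.

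**Figure D5:**
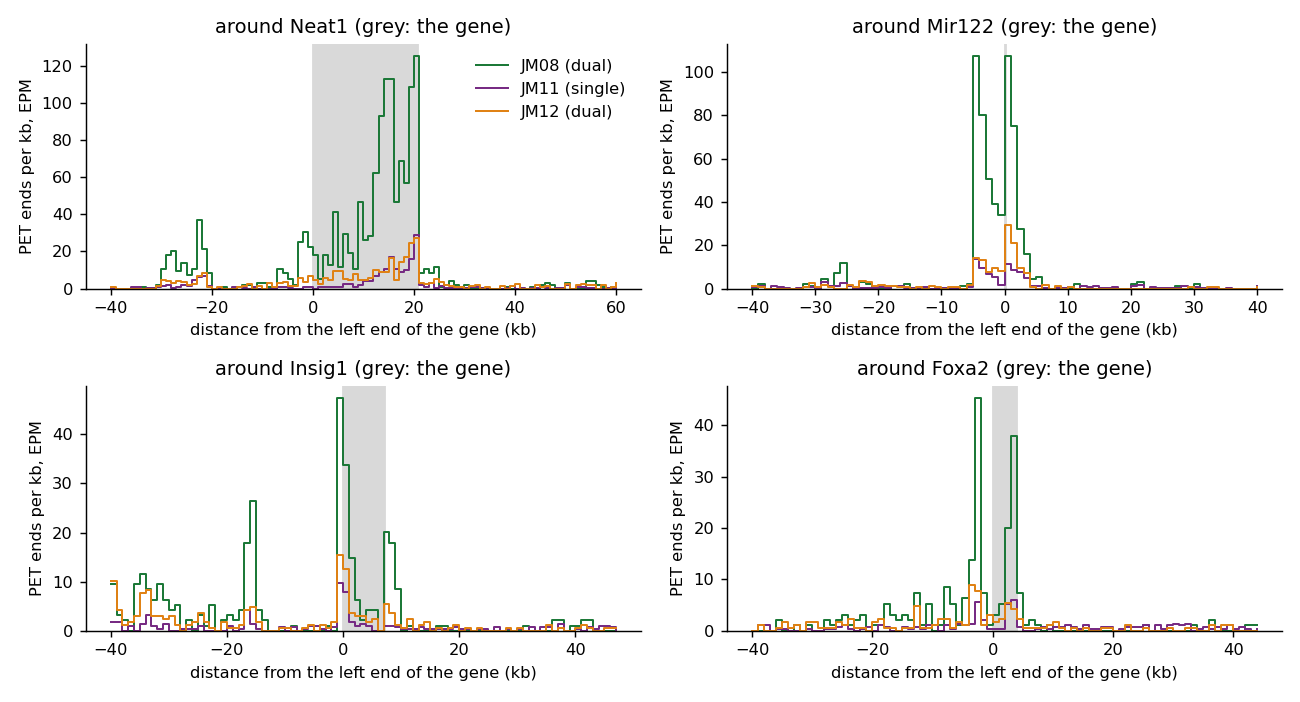
PET ends in EPM in steps of 1 kb around Neat1, Mir122, Insig1 and Foxa2, by experiment, against the distance in kb from the left end of each gene (grey). Ends rise along Neat1 to its right end and form a block from 5 kb left to 4 kb right of Mir122. They stand at the left end of Insig1, 15 to 18 kb left of it, and further left again. In JM08 and JM12 ends also stand near the right end of Insig1. At Foxa2 they stand 2 to 4 kb left and 2 to 4 kb right of the left end.

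Contacts between 8 and 100 kb were few. PETs between 8 and 100 kb with an end in a member numbered 31 in JM08, 3 in JM11 and 69 in JM12, or 2.10, 0.160 and 4.58 for every 1000 member ends. The 300 densest genic bins had 3.26, 0.729 and 7.59 per 1000 ends. Pile members had 0, 0 and 2 such PETs among 2454, 4250 and 2686 ends, mixed members 17, 2 and 46, and broad members 15, 1 and 27. A PET that joined members of different classes counts in both.

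The members with the most PETs of 8 to 100 kb were near Insig1 and Rxra. Up to 2 Mb, the densest member had 18 PETs beyond 8 kb and the second 9, of which 1 and 0 were of 8 to 100 kb. The bin chr5:28050000-28059999 had 2 in JM08 and 3 in JM12, and 3 of their partners lay within 2347 bp of Insig1, at distances of 15402, 27759 and 15238 bp from the member end. One partner was in another member, in the Gm35223 run. The bin chr2:27590000-27599999 had 3 in JM08 and 2 in JM12, and chr2:27620000-27629999 had 2 in JM08 and 2 in JM12. These bins were joined to one another by 1 PET in JM08 and 1 in JM12, and each also had a PET in JM12 whose partner lay within 1968 bp of Rxra, which encodes the common partner of many nuclear receptors. The Ppara bin chr15:85670000-85679999 had 3 contacts, 2 in JM08 and 1 in JM12, all with other members, and the JM12 partner lay in the let-7 bin. The bin chr5:122520000-122529999 had 2 in JM08 and 1 in JM12, each with the partner inside Atp2a2, a calcium pump gene. No bin had more than 5 PETs of 8 to 100 kb, and these counts were not tested.

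Most PETs from members ended on another chromosome, with 83.3% in JM08, 91.8% in JM11 and 88.8% in JM12. Their partners lay in a member in 1.71% of cases in JM08 (1.48 to 1.97%), where members held 1.60% of all ends of such PETs. In JM11 the share was 0.610% (0.497 to 0.740%) against 0.656%, and in JM12 it was 1.06% (0.885 to 1.25%) against 0.942%. Over all members, each experiment's interval contained the share of all ends. By class, the partners of mixed members in JM08 were in a member in 1.93% of cases (1.62 to 2.29%), above the 1.60% of all ends, and the intervals of the other 8 combinations of class and experiment contained the share of all ends in that experiment. These 9 intervals were not adjusted for their number. A PET between members of the same class counts from both sides, so the intervals are too narrow. The 1.93% in JM08 was therefore not read as a preference. PETs between members on different chromosomes numbered 213 over 128 pairs of bins, and 25 pairs had more than 1. The pair with the most, 10 in JM08, 6 in JM11 and 5 in JM12, joined the 2 densest members. Those bins also had the most PETs to other chromosomes, 7761 and 7075. No count expected from the number of ends was computed for any pair, so these pairs were not read as contacts.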

How the data were processed

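The authors deposited 1 table of PETs with no header, giving the experiment, linker, chromosome and position of each end, with no other unit. Per the submitters' processing notes, reads were handled with Bowtie2 and mm10; no source used here states its filters or duplicate removal. JM08, JM11 and JM12 held 474478, 1438866 and 840210 PETs. Densities are ends for every 1000000 ends of an experiment (EPM). Gene names, promoters and microRNAs came from RefSeq tables of GRCm38.p6, the same build. Members, gene lists and classes were chosen with earlier results of these data known. Named members were the 10 densest, the 5 densest of each class and of each noncoding type, those at listed liver, clock or noncoding genes, and 3 either side of the threshold; members with the most contacts or start-site ends were chosen after their values were seen. The values of 1 listed gene are not reported here. Intervals are 95% exact binomial. Computation used Python 3.11.15, numpy 2.4.6, pandas 2.3.3 and scipy 1.17.1, tested on simulated data. Alternatives varied bin size and offset, gene margin, summary, ends used, window, thresholds, distance limit and experiments.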

Additional observations from a re-analysis of the deposited data

How the results depend on the processing

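Both the membership and the class counts depended on the processing. Of the 300 members, 154 to 206 were chosen again when 1 experiment was left out, with the lowest count without JM08 and 162 without JM12. Other settings gave 164 members overlapping a chosen bin with 20 kb bins, 191 with 5 kb bins, 179 with bins shifted by 5 kb, 129 with the minimum of the experiments, 178 with ends of PETs between chromosomes alone and 138 with ends of PETs within 8 kb alone. The remaining settings of this choice shared 210 to 300. Piles numbered 20 with a threshold of 50%, 24 with each distinct position counted once (chosen after seeing the data) and 36 to 42 with 1 experiment left out. Broad members numbered 12 with a threshold of 5% and 245 with 20%, so that class is a range and not a type. In the experiment left out, the top 5% held 56.3%, 37.7% and 62% of the bins chosen without JM08, JM11 and JM12 (7.71%, 5.31% and 5.42% of all intergenic bins), and the top 0.1% held 28.7%, 16% and 27.7% (0.105%, 0.122% and 0.101% of all). Without the 10 densest members (chosen after seeing the data) the share of PETs within 8 kb over all members was 23.6%, 7.90% and 11.1%, and in piles it was 0.630% in JM11 and 2.32% in JM12. Limits of 4 or 20 kb and collapsing of near-duplicate PETs left these shares inside their intervals. Partners in members pooled over experiments were 1.05% (0.954 to 1.16%), above the 0.882% of ends that members held. That base weights experiments by all their ends and not by member partners, and each PET between members counts from both sides, so the pooled interval was not read as a preference. With JM08, JM11 or JM12 left out, the share was 0.802%, 1.36% or 1.05%, against 0.755%, 1.17% and 0.857%. The cause of these moves was not tested, except that a stricter or wider threshold takes fewer or more bins by construction. Of 73 alternative values, 48 stayed within the limits set for them and 25 moved outside. Changes of direction were not assessed. No paired analysis was possible because the table names no library. Low ends per bin limit the lower ranks.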

Other observations

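Ends of the piles were unevenly divided between the reads of a PET in JM08 and JM12, and not in JM11. The first read gave 39.5% of the ends of pile members in JM08 (95% exact binomial interval 37.6 to 41.5%), 50% in JM11 (48.5 to 51.5%) and 45.2% in JM12 (43.3 to 47.1%). In the 6 large mixed members it gave 37.4% (36.2 to 38.6%), 47.7% (46.7 to 48.8%) and 43.0% (41.7 to 44.2%). In broad members the shares were 51.4%, 50.0% and 50.6%, and in all other autosomal bins they were 50.2%, 50.0% and 50.1%. Among the 10 densest members, the ribosomal bin had 54.5%, 50.7% and 50.4%, and the densest bin had 39.3%, 46.8% and 42.6%. The ends of a bin are not independent where they repeat a position, so these intervals are too narrow, and the cause of the uneven division was not tested.

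The share of the linker sequence ATGT among member ends was 38.6% (36.7 to 40.6%), 22.4% (21.2 to 23.7%) and 47.2% (45.3 to 49.1%) in piles in JM08, JM11 and JM12, against 41.0%, 22.9% and 47.6% in all other autosomal bins. In the large mixed members it was 39.5%, 20.8% (20.01 to 21.7%) and 47.8%. In broad members it was 42.8% (41.3 to 44.4%), 29.4% (27.7 to 31.2%) and 48.7%, and in the small mixed members 43.1% (41.1 to 45.1%), 29.7% (28.0 to 31.5%) and 47.3%. By these intervals, broad and small mixed members lay above the other bins in JM08 and JM11, by most in JM11. Piles in JM08 and the large mixed members in JM08 and JM11 lay below by the same intervals. The linker is given once for a PET and was counted for both of its ends, so these intervals are too narrow. In JM08 the limits lay close to the 41.0% of other bins, so no difference was read there. No source used here states which libraries carried which linker.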
